A study of Saccharomyces cerevisiae with 4 samples.

Results

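Poly(A) RNA of the budding yeast Saccharomyces cerevisiae was sequenced in 4 libraries, 2 from a wild type (WT) and 2 from a mutant labelled T4V, in which threonine 4 of the repeats that make up the C-terminal domain (CTD) of RNA polymerase II is replaced by valine. The 29 genes described here are named genes whose RNA in T4V was at most 0.5 of the WT level, out of 7126 genes in the table. They were chosen by the deposited values themselves. A gene was taken if its systematic name starts with Y, it has a gene name, it reached at least 10 RPKM in each WT library, and its T4V mean was at most 0.5 of its WT mean. RPKM is a read count scaled to the length of the gene and to the read total of the library, so levels can be compared between genes. Of the 4336 named genes that met the WT minimum, these 29 met the ratio, and 9 others that met it (GCD10, PTC2, MOD5, ADH1, IMD2, ORC4, HIP1, TIP1 and CCS1, at ratios of 0.220 to 0.489) were left out by name. GAL4 was left out as well, but at 5.11 and 4.14 RPKM in WT it was under the minimum. No source used here states the medium, the growth phase, the strain background or how the mutant CTD was introduced, or whether libraries of a genotype came from separate cultures, so the spread between them may be technical.

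The CTD is a tail of repeated 7-residue units on the largest polymerase subunit. Kinases and phosphatases change its phosphorylation as the polymerase moves along a gene, and factors for capping, splicing, chromatin change and 3′ end formation bind to it in turn. The series asks how threonine 4 joins transcription to chromatin remodelling around the histone variant Htz1. The subunit gene RPO21 had 51.6 and 53.4 RPKM in the WT libraries and 50.8 and 54.1 in the T4V libraries, a level that cannot show a changed codon, so the labels alone give the genotype.

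The libraries held between 3355000 and 4261000 reads, as recovered from the steps in the RPKM values. Summed over the pair of libraries of a genotype, the 29 genes rested on 61 to 2270 reads in WT and on 29 to 1112 in T4V. Across the whole table, 5935 genes were tested with limma on log2(RPKM + 1), and a gene is said to be called where the Benjamini-Hochberg adjusted p over all of them was under 0.05. In T4V, 371 genes (6.25%) were called lower and 692 (11.7%) higher, together 17.9%. The counts were 503 lower and 511 higher after median-of-ratios scaling, and 443 lower and 449 higher after quantile normalization. All 29 chosen genes were called lower, and in all 29 both T4V libraries lay below both WT libraries, as they did for 23.4% of all genes tested. With 1 library left out and the filter on low values applied again to the libraries kept, 250 to 321 genes were called lower and 404 to 652 higher. With the 5935 genes kept as they were, 6 lower and 10 higher were called without T4V library A, and 10 lower and 17 higher without T4V library B, where 19 genes had equal values in both WT libraries. Of the 29 chosen genes, 3 and 4 were then called. None of the calls on partners, paralogs and neighbours given below held in these 2 fits, and over the same 5935 genes 24 and 21 of them were lost without WT library A and WT library B. Calls said below to be lost or to hold without a library are from fits with the filter applied again, and "each other alternative" leaves out the fits over the 5935 genes. The rule used the contrast of T4V with WT, so nothing is read from these counts and the chosen genes are given as values, without a test.

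The ratio of the T4V mean to the WT mean ran from 0.149 to 0.499 with a median of 0.412. The ratio was above 0.4 in 16 of the genes. The WT means of the 29 genes ran from 14.01 to 578 RPKM with a median of 38.9, below the median of 57.9 RPKM over the 4336 named genes that met the WT minimum. Their median exonic length was 1008 bases against 1296, their median GC content was 39.6% against 39.7%, and 1 of the 29, UBC12, has an intron, against 4.92% of the 4333 of these genes with an annotation. The 29 genes lie on 12 chromosomes and none of them is next to another. Replicates differed little among themselves. The higher WT library exceeded the lower by at most 1.25-fold in any of the 29 genes, and the higher T4V library exceeded the lower by at most 1.72-fold, in MRF1.

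**Figure D1:**
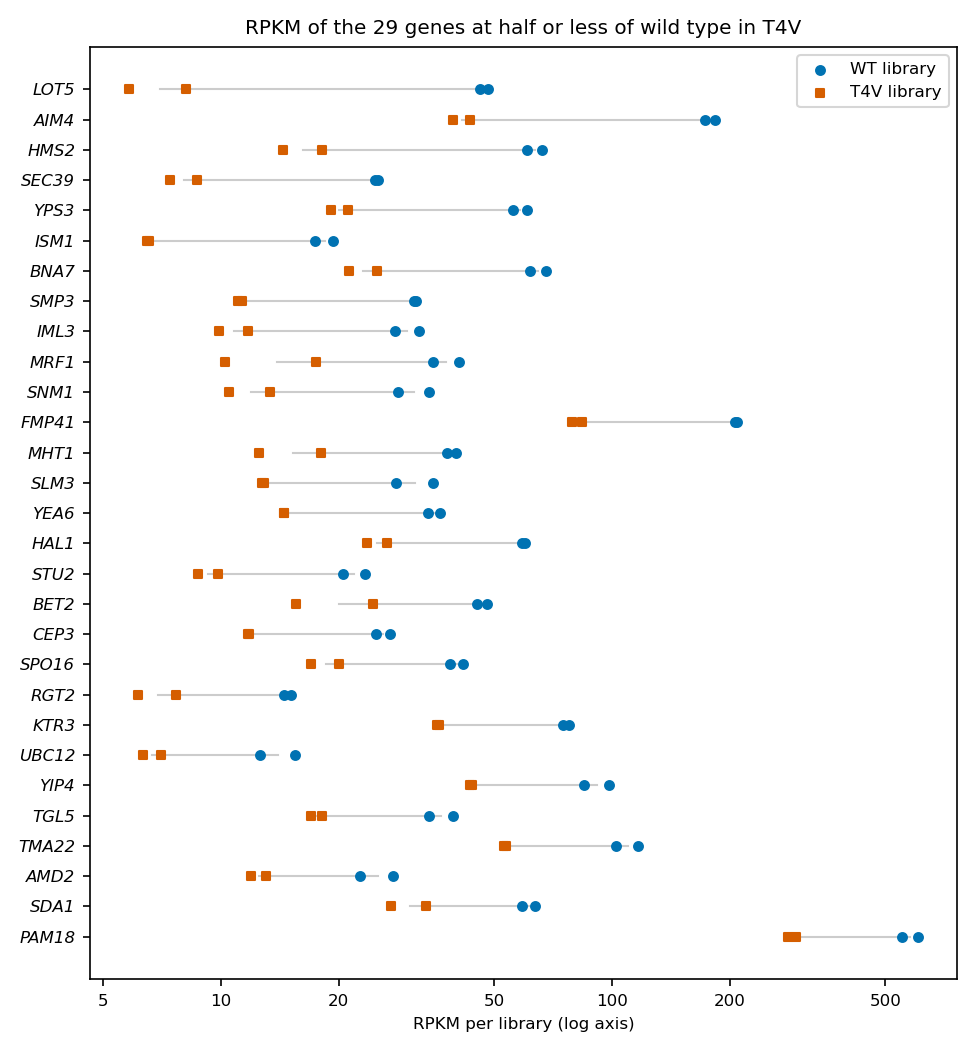
RPKM of each of the 29 genes in the 2 WT libraries (circles) and the 2 T4V libraries (squares), on a log axis, ordered by the ratio of T4V mean to WT mean from 0.149 (LOT5, top) to 0.499 (PAM18, bottom). The grey line joins the means of the genotypes, and the squares lie left of the circles in each row because the rule chose genes in this way, and the T4V pair is widest apart in MRF1 and BET2.

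Start regions of 4 of the genes are shown here because these genes head the list or have close neighbours and relatives that are compared below. Each holds the 250 bases before the start codon and the first 50 bases from it, 5′ to 3′ on the strand of the gene, from the RefSeq R64 assembly, the release behind sacCer3. Capitals mark the start codon and every match to the motifs described after them. The windows are chrXI:98471-98770 on the plus strand for LOT5, chrII:609788-610087 on the plus strand for AIM4, chrX:703946-704245 on the plus strand for HMS2 and chrXII:390221-390520 on the minus strand for YPS3.
LOT5: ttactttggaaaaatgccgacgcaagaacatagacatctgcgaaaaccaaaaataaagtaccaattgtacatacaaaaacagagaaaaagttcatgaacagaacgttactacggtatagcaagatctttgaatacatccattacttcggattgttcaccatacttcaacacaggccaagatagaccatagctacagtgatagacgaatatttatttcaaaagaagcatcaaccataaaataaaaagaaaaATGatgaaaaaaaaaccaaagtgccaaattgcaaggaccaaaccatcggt
AIM4: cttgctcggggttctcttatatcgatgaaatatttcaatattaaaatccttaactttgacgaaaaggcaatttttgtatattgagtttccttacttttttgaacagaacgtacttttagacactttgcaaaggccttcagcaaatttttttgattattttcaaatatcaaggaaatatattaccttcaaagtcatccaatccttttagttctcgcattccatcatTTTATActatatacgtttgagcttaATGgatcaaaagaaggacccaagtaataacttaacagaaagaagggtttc
HMS2: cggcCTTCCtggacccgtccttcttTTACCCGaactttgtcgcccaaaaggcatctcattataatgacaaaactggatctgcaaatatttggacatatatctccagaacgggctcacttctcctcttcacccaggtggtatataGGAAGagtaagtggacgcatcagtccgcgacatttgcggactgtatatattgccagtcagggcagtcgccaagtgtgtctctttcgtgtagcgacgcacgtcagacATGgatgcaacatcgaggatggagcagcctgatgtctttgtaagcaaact
YPS3: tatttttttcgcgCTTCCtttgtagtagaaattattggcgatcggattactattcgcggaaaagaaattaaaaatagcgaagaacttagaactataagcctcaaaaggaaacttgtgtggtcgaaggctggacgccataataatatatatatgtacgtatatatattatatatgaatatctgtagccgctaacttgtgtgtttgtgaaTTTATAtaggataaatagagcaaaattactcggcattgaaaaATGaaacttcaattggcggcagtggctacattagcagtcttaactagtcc

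The HMS2 window lies for most of its length inside YJR146W, an uncharacterized open reading frame on the same strand that is described with HMS2 below. The other windows differ in what they hold. Motif TATAAA, the core of the TATA element, occurs on one strand or the other in the windows of AIM4 and YPS3 and in those of 14 of the 29 genes (48.3%), against 45.2% of 5987 such windows in the genome. TTACCCG, bound by the general regulatory factor Reb1, occurs in 3 (HMS2, SDA1 and YIP4; 10.3% against 7.10%), and GGAAG, the core of the site of the glycolytic activator Gcr1, in 17 (58.6% against 46.5%). AGGGG, the stress response element, occurs in 5 (17.2% against 21.6%), and GATGAG, a motif of ribosome biogenesis genes, in 5 (17.2% against 20.4%). TAGCCGCC, the site of the meiotic regulator Ume6, and ACGCGT, the site of the G1 factor MBF, occur in 1 window each (3.45%, against 1.17% and 3.07%), and both of these are in the window of the meiotic gene SPO16. CACGTG and TGACTC, the letters bound by Pho4 and Cbf1 and by Gcn4, occur in none of the 29 windows, against 2.91% and 8.00%. Both strands were searched, no match was required to be free of another, and the shares are descriptions only.

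The 3 steepest falls among the 29 were in LOT5, AIM4 and HMS2, which have no annotated function in common. HAL1 and UBC12 are given with them as genes outside the other groups by role. LOT5, whose name comes from its rise in cells moved to low temperature, lies at chrXI:98721-99641 and had 48.05 and 46.05 RPKM in WT and 5.83 and 8.15 in T4V, or 14.9% of the WT mean. AIM4, a short gene of 372 bases at chrII:610038-610409 whose product was proposed to sit at the nuclear pore, had 173 and 183 RPKM in WT and 43.3 and 39.1 in T4V, or 23.1%. HMS2, which encodes a relative of heat shock transcription factors, lies at chrX:704196-705272 and had 66.2 and 60.5 RPKM in WT and 14.4 and 18.1 in T4V, or 25.6%. In each of the 3 genes the higher T4V library was less than 0.3 of the lower WT library, the widest separations among the 29. HAL1, which acts in salt tolerance, had 58.9 and 59.98 RPKM in WT and 23.6 and 26.5 in T4V, or 42.1%. UBC12, the enzyme that passes the ubiquitin-like protein Rub1 to cullins, had 12.6 and 15.4 RPKM in WT and 6.31 and 7.04 in T4V, or 47.6%. UBC12 was the gene with the lowest WT level of the 29, with 61 reads in the WT pair and 29 in the T4V pair.

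HMS2 shares 43 bases with YJR146W, which ends inside it on the same strand, so reads in those bases could belong to either. Reads of HMS2 RNA from before its start codon would also fall in YJR146W. The YJR146W values may therefore not be separate from those of HMS2, which was not tested. YJR146W had 18.1 and 22.4 RPKM in WT and 3.37 and 3.31 in T4V (log2 fold change -2.28 ± 0.20 SE, adjusted p = 0.0013 by limma), and it kept its call under each other alternative. Limma called 0 of the other 4 genes with a heat shock factor type DNA-binding domain (HSF1, SKN7, MGA1 and SFL1). Of the 4, 0 had an unadjusted p under 0.05 and voom on recovered reads called 0. With 6.25% called lower and 11.7% higher over all genes tested, 4 genes would hold few calls in any case. SKN7, which the annotation names as the paralog of HMS2 from the whole-genome duplication, had 127 and 117 RPKM in WT and 119 and 116 in T4V (log2 fold change -0.06, 95% interval -0.24 to 0.13). The fall in HMS2 was thus accompanied by one in the reading frame it overlaps, and SKN7 was not called.

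UBC12 works with a small set of proteins that attach Rub1. Among 39 other genes of ubiquitin conjugation and removal, limma called 1 lower and 4 higher, against 6.25% and 11.7% of all genes tested. The 39 had a median log2 fold change of 0.17, against 0.07 over all genes tested. OTU2, a deubiquitinase gene, was lower (log2 fold change -0.50 ± 0.12 SE, adjusted p = 0.0309), a call lost without each library in turn (log2 fold change -0.57 to -0.42, adjusted p 0.05 to 0.124). UBP11 and UBP6, also genes of ubiquitin proteases, were higher at 0.53 (adjusted p = 0.0338) and 0.40 (adjusted p = 0.0226). The UBP11 call was lost without each library in turn (log2 fold change 0.50 to 0.56, adjusted p 0.0616 to 0.12) and under both other scalings, and that of UBP6 was lost without WT library B, T4V library A or T4V library B (log2 fold change 0.34 to 0.42, adjusted p 0.0642 to 0.0947) and after quantile normalization. The conjugating enzyme gene UBC8 was higher at 0.47 (adjusted p = 0.0156), lost without T4V library A or T4V library B (log2 fold change 0.46 to 0.48, adjusted p 0.0531 to 0.0629).

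The direct partners of UBC12 were picked after the 29 genes were known and carry no test. RUB1 itself had 134 and 152 RPKM in WT and 230.5 and 164 in T4V. Of the activating enzyme's subunit genes, ULA1 had 52.6 and 51.4 RPKM in WT and 81.97 and 76.4 in T4V and UBA3 11.2 and 11.6 RPKM in WT and 10.6 and 13.3 in T4V. DCN1, whose product helps Ubc12 charge the cullin, had 15.2 and 11.5 RPKM in WT and 6.25 and 8.98 in T4V. Its values were lower in both T4V libraries, those of RUB1 and ULA1 were higher in both, and those of UBA3 overlapped.

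Of the 29 genes, 6 encode proteins found in mitochondria, and of these 3 serve translation inside the organelle. The roles by which the 29 genes are grouped here were assigned with the genes known. The share of each role among all genes was not counted, so the sizes of the groups are not a result. MRF1, the release factor that ends mitochondrial translation at stop codons, had 40.6 and 34.8 RPKM in WT and 17.5 and 10.2 in T4V, or 36.8% of the WT mean. ISM1, the mitochondrial isoleucyl-tRNA synthetase, had 17.4 and 19.4 RPKM in WT and 6.54 and 6.47 in T4V, or 35.4%. SLM3, which puts sulfur on the wobble base of mitochondrial tRNAs, had 34.9 and 27.9 RPKM in WT and 12.8 and 12.7 in T4V, or 40.7%. The T4V libraries agreed closely for ISM1 and SLM3 and lay furthest apart for MRF1, where T4V library A was well above T4V library B but still below both WT libraries.

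Of 8 other translation factor genes, limma called 2 higher and 0 lower, with 0 lower at an unadjusted p under 0.05 and 0 lower by voom. RRF1, the ribosome recycling factor, had 22.4 and 25.7 RPKM in WT and 35.3 and 37.9 in T4V (log2 fold change 0.59 ± 0.12 SE, adjusted p = 0.0201), a call lost without WT library A or T4V library B (log2 fold change 0.49 to 0.54, adjusted p 0.0535 to 0.0764). MEF2, a GTPase that acts with it, had 14.9 and 16.7 RPKM in WT and 21.7 and 25.5 in T4V (log2 fold change 0.55 ± 0.15 SE, adjusted p = 0.0456), a call lost without each library in turn (log2 fold change 0.44 to 0.66, adjusted p 0.0528 to 0.199) and under both other scalings. MRF1 was chosen for its lower T4V values, and the higher calls of RRF1 and MEF2 each failed with some library left out.

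Among 35 other aminoacyl-tRNA synthetase genes, which charge tRNAs in the cytosol or in mitochondria, 3 were called lower and 1 higher. The shares over all genes tested were 6.25% and 11.7%, and the 35 had a median log2 fold change of -0.01. DPS1, the cytosolic aspartyl enzyme, had 389 and 364 RPKM in WT and 252 and 266 in T4V (log2 fold change -0.54 ± 0.07 SE, adjusted p = 0.00422), and this call held in each other alternative. DIA4, a mitochondrial seryl enzyme, was lower at -0.73 (adjusted p = 0.021), lost without WT library A, WT library B or T4V library A (log2 fold change -0.76 to -0.64, adjusted p 0.0527 to 0.0768). The cytosolic tryptophanyl gene WRS1 was lower at -0.26 (adjusted p = 0.0467), lost without WT library A, T4V library A or T4V library B (log2 fold change -0.29 to -0.22, adjusted p 0.119 to 0.194). The mitochondrial lysyl gene MSK1 was higher at 0.28 (adjusted p = 0.0325), lost without each library in turn (log2 fold change 0.26 to 0.30, adjusted p 0.0558 to 0.147) and under both other scalings. MTO1 and MSS1 modify the same wobble base as SLM3 and were picked after the 29 genes were known. MTO1 had 18.4 and 22.3 RPKM in WT and 21.1 and 18.2 in T4V, and MSS1 had 14.6 and 15.8 RPKM in WT and 23.4 and 21.4 in T4V, so that neither showed the lower T4V values of SLM3.

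PAM18, YEA6 and FMP41 are the other mitochondrial genes. PAM18, the J-protein that stimulates the Hsp70 motor of protein import, was the most abundant of the 29, with 604 and 553 RPKM in WT and 296 and 282 in T4V, or 49.9% of the WT mean. YEA6, a carrier of NAD across the inner membrane, had 33.9 and 36.4 RPKM in WT and 14.5 and 14.4 in T4V, or 41.2%. FMP41, whose product was found in purified mitochondria and has no assigned function, had 208 and 206 RPKM in WT and 78.7 and 83.95 in T4V, or 39.3%. Replicates of FMP41 were close in both genotypes, and PAM18 sat just inside the ratio limit.

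Pam18 is held by Pam16, a partner that restrains it. PAM16 had 98.3 and 107 RPKM in WT and 84.8 and 78.2 in T4V (log2 fold change -0.33 ± 0.09 SE, adjusted p = 0.0455), a call lost without WT library B, T4V library A or T4V library B (log2 fold change -0.39 to -0.27, adjusted p 0.0766 to 0.19). Over all genes tested, 6.25% were called lower and 11.7% higher. PAM16 was the gene called lower among 33 other import genes, of which 2 were called higher. These were the intermembrane chaperone gene TIM9 at 0.33 (adjusted p = 0.0253) and TIM11 at 0.38 (adjusted p = 0.0368), which despite its name encodes a subunit of ATP synthase. The TIM9 call was lost without T4V library A (log2 fold change 0.26, adjusted p 0.14), the TIM11 call was lost without WT library A, T4V library A or T4V library B (log2 fold change 0.24 to 0.38, adjusted p 0.0544 to 0.0765), and both were lost under both other scalings. The 33 genes had a median log2 fold change of 0.05 and none was below -0.33, while that of PAM18 was -0.998.

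Of 25 other mitochondrial carrier genes tested, 2 were called lower and 3 higher, against 6.25% and 11.7% of all genes tested. GGC1, the GTP carrier, had 276 and 265 RPKM in WT and 186 and 193 in T4V (log2 fold change -0.51 ± 0.07 SE, adjusted p = 0.00466), and PIC2, a carrier of phosphate and copper, had 47.4 and 41.8 RPKM in WT and 78.9 and 90.97 in T4V (log2 fold change 0.91 ± 0.11 SE, adjusted p = 0.00371). Both calls held in each other alternative. MRS3, which brings iron into the organelle, had 28.4 and 33.9 RPKM in WT and 19.9 and 18.6 in T4V (log2 fold change -0.66 ± 0.14 SE, adjusted p = 0.0197), a call lost without WT library B or T4V library B (log2 fold change -0.62 to -0.54, adjusted p 0.0558 to 0.0648). YMC1 was higher at 0.36 (adjusted p = 0.0455), lost without WT library A or T4V library A (log2 fold change 0.26 to 0.28, adjusted p 0.124 to 0.182) and under both other scalings. YIA6, the other NAD carrier and closest relative of YEA6 at 63.8% protein identity, had 18.6 and 17.8 RPKM in WT and 15.7 and 15.3 in T4V and was not called (log2 fold change -0.22, 95% interval -0.55 to 0.10).

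Another 6 of the 29 genes act in the secretory pathway or at the cell surface. SEC39, a subunit of the Dsl1 complex that tethers Golgi-derived vesicles to the endoplasmic reticulum (ER), had 25.2 and 24.8 RPKM in WT and 8.68 and 7.38 in T4V, or 32.1% of the WT mean. BET2, the subunit that transfers a lipid to Rab GTPases so that they bind membranes, had 47.8 and 45.05 RPKM in WT and 15.5 and 24.5 in T4V, or 43.1%. YIP4, whose product binds Rab GTPases at the Golgi, had 97.9 and 84.6 RPKM in WT and 43.4 and 43.8 in T4V, or 47.7%. The T4V libraries of BET2 differed by 1.58-fold, and those of YIP4 hardly at all.

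SMP3 adds a mannose to the glycosylphosphatidylinositol (GPI) anchor, which fixes proteins such as the yapsins to the membrane, and it had 31.1 and 31.6 RPKM in WT and 11.3 and 11.1 in T4V, or 35.7%. KTR3, a Golgi mannosyltransferase of protein glycans, had 74.9 and 77.7 RPKM in WT and 36.1 and 35.7 in T4V, or 47.1%. YPS3, a GPI-anchored aspartyl protease of the yapsin family that maintains the cell wall, had 60.5 and 55.7 RPKM in WT and 21.1 and 19.1 in T4V, or 34.5%. These 3 genes had replicates within 1.11-fold of each other in both genotypes.

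For SEC39, SMP3 and BET2, other genes of their complexes and pathways follow. Over all genes tested, 6.25% were called lower and 11.7% higher, so lists this small would hold few calls in any case. Of the 6 other genes of the Dsl1 complex and the ER SNAREs it binds, limma called 0, with 2 lower and 0 higher at an unadjusted p under 0.05 and 1 lower by voom. Their log2 fold changes ran from -0.40 to 0.25. Among 19 other genes of GPI anchor synthesis limma again called 0, with 2 lower and 1 higher at an unadjusted p under 0.05 and 1 in each direction by voom. BET4, which encodes the alpha subunit that pairs with Bet2 and was picked after the 29 genes were known, had 64.5 and 72.3 RPKM in WT and 89.3 and 89.7 in T4V, higher in both T4V libraries than in either WT library. RAM1, the related subunit of farnesyltransferase at 31.4% identity to Bet2, had 15.4 and 13.1 RPKM in WT and 11.3 and 13.8 in T4V (log2 fold change -0.17, 95% interval -0.60 to 0.25).

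Of 15 other Golgi mannosyltransferase genes, 1 was called lower and 3 higher, against 6.25% and 11.7% of all genes tested. OCH1, which starts the outer chain of N-linked glycans, had 155 and 148 RPKM in WT and 108 and 113 in T4V (log2 fold change -0.45 ± 0.07 SE, adjusted p = 0.00981). KTR4 had 176 and 185 RPKM in WT and 272 and 252 in T4V (log2 fold change 0.53 ± 0.07 SE, adjusted p = 0.00539), and KRE2 had 418 and 386 RPKM in WT and 494 and 538 in T4V (log2 fold change 0.36 ± 0.07 SE, adjusted p = 0.0198), a call lost without T4V library B (log2 fold change 0.30, adjusted p 0.0865). KTR6 was higher at 0.25 (adjusted p = 0.0442), lost without each library in turn (log2 fold change 0.22 to 0.28, adjusted p 0.0734 to 0.205) and under both other scalings. KRE2 and KTR1 are the closest relatives of KTR3, at 54.4% and 55.2% identity, with KTR2 at 44.9%. KTR1 and KTR2 were not called (log2 fold changes 0.17, 95% interval -0.03 to 0.36, and 0.20, 95% interval -0.04 to 0.44). None of KRE2, KTR1 and KTR2 was thus called lower.

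Of the 5 other yapsin genes, 1 was called lower and 1 higher, against 6.25% and 11.7% of all genes tested. MKC7, at 46.9% identity to Yps3, had 104 and 105 RPKM in WT and 68.7 and 60.3 in T4V (log2 fold change -0.69 ± 0.09 SE, adjusted p = 0.00505). YPS1, at 47.8% identity and lying 523 bases downstream of YPS3 on the same strand, had 130.5 and 127 RPKM in WT and 194 and 195 in T4V (log2 fold change 0.59 ± 0.07 SE, adjusted p = 0.00305). Both calls held in each other alternative. YPS6, at 37.8% identity, had 29.4 and 26.6 RPKM in WT and 31.6 and 26.5 in T4V and was not called. Neighbouring YPS3 and YPS1 therefore differed in direction. MKC7, with nearly the same identity to Yps3 as Yps1 has, had the direction of YPS3.

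**Figure D2:**
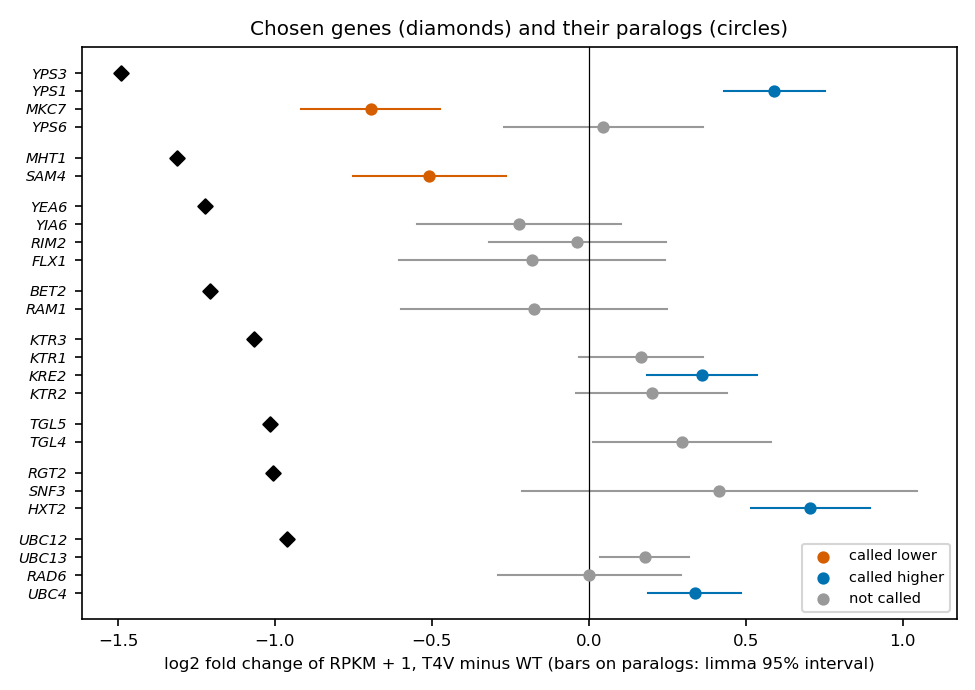
Log2 fold change of RPKM + 1 (T4V minus WT) for 8 of the 29 genes (diamonds) and their 17 tested paralogs (circles, with limma 95% intervals). MKC7 and SAM4 were called lower, YPS1, KRE2, HXT2 and UBC4 were called higher, and the rest were not called.

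Another 4 genes act on chromosomes and microtubules. IML3, a subunit of the Ctf19 complex of the kinetochore, which joins chromosomes to the spindle, had 31.98 and 27.8 RPKM in WT and 11.7 and 9.86 in T4V, or 36.1% of the WT mean. CEP3, part of the CBF3 complex that binds centromere DNA, had 24.9 and 26.96 RPKM in WT and 11.8 and 11.7 in T4V, or 45.2%. STU2, which builds microtubules at the spindle and the kinetochore, had 20.5 and 23.3 RPKM in WT and 9.83 and 8.71 in T4V, or 42.4%. T4V libraries of CEP3 were nearly equal. In a whole culture, fewer cells in a stage of the cell cycle and less RNA per cell cannot be told apart.

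The other kinetochore and microtubule genes are given beside the shares over all genes tested, 6.25% called lower and 11.7% higher. Of 26 other kinetochore genes 1 was called lower and 0 higher, with 2 higher at an unadjusted p under 0.05 and 1 higher by voom. SPC25, of the Ndc80 complex, had 16.2 and 15.6 RPKM in WT and 8.95 and 10.6 in T4V (log2 fold change -0.66 ± 0.17 SE, adjusted p = 0.0394), a call lost without each library in turn (log2 fold change -0.77 to -0.55, adjusted p 0.0567 to 0.147) and with voom. CHL4, which forms a stable pair with Iml3 and was picked after the 29 genes were known, had 18.8 and 18.5 RPKM in WT and 18.4 and 18.2 in T4V, almost the same in all libraries. Among 29 other genes of dynein, kinesins and spindle microtubules, 2 were called lower and 1 higher. CIK1, a partner of the kinesin Kar3, was lower at -0.54 (adjusted p = 0.0374), lost without each library in turn (log2 fold change -0.58 to -0.50, adjusted p 0.0799 to 0.124). The tubulin folding gene CIN2 was lower at -0.38 (adjusted p = 0.0348), lost without WT library A, T4V library A or T4V library B (log2 fold change -0.41 to -0.30, adjusted p 0.0717 to 0.127). CIN1, of the same folding pathway, was higher at 0.75 (adjusted p = 0.0318), lost without WT library A or T4V library B (log2 fold change 0.52 to 0.66, adjusted p 0.0624 to 0.0899) and after quantile normalization.

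SPO16, which acts in pairing of meiotic chromosomes, had 41.6 and 38.5 RPKM in WT and 16.97 and 20.1 in T4V, or 46.2% of the WT mean. SPO22, which acts in the same step, met the ratio but missed the WT minimum, with 8.06 and 8.13 RPKM in WT and 0.916 and 1.04 in T4V. ZIP2, another gene of that step, had 0.930 and 0.776 RPKM in WT and 0.846 and 0.555 in T4V, too low to compare. SPO22 and ZIP2 were set beside SPO16 after the 29 genes were known and carry no test here.

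Another 3 genes serve RNA processing and ribosomes. SNM1, a subunit of RNase MRP that RNase P lacks, had 28.4 and 33.9 RPKM in WT and 10.5 and 13.4 in T4V, or 38.3% of the WT mean. SDA1, needed to assemble the large ribosomal subunit, had 58.7 and 63.5 RPKM in WT and 33.5 and 27.2 in T4V, or 49.7%. TMA22, which with Tma20 recycles small ribosomal subunits, had 102 and 116 RPKM in WT and 52.9 and 53.5 in T4V, or 48.6%. The WT level of TMA22 was over 100 RPKM and its T4V libraries were almost equal.

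Of 20 other genes of RNase P, RNase MRP and tRNA processing, 1 was called lower and 1 higher, against 6.25% and 11.7% of all genes tested. Both called genes encode subunits that RNase P and RNase MRP share. POP5 had 20.7 and 21.5 RPKM in WT and 36.5 and 35.1 in T4V (log2 fold change 0.73 ± 0.11 SE, adjusted p = 0.00717), a call that held in each other alternative. POP7 had 149 and 169 RPKM in WT and 125 and 105 in T4V (log2 fold change -0.46 ± 0.11 SE, adjusted p = 0.0295), a call lost without WT library B or T4V library B (log2 fold change -0.37 to -0.34, adjusted p 0.0657 to 0.1). Among 13 other late assembly genes of the large ribosomal subunit, RLP24 alone was called, lower at -0.25 (adjusted p = 0.0313), lost without each library in turn (log2 fold change -0.27 to -0.24, adjusted p 0.0576 to 0.127). With 0 called higher by limma there, 0 were higher at an unadjusted p under 0.05 and 0 by voom, and the median of the 13 was -0.15. TMA20, picked after the 29 genes were known, had 114 and 119.8 RPKM in WT and 103 and 96.3 in T4V, lower in both T4V libraries but far less so than its partner.

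The last 5 genes belong to metabolism and nutrient sensing. BNA7, the formamidase of NAD synthesis from tryptophan, had 67.9 and 61.6 RPKM in WT and 25.03 and 21.2 in T4V, or 35.7% of the WT mean. MHT1, which makes methionine from S-methylmethionine or S-adenosylmethionine (AdoMet), had 39.8 and 37.9 RPKM in WT and 18.04 and 12.5 in T4V, or 39.3%. TGL5, a triacylglycerol lipase of lipid droplets, had 39.2 and 33.9 RPKM in WT and 16.96 and 18.1 in T4V, or 47.99%. All T4V values of these genes lay below the lower WT value, as they did for all 29 genes chosen by the rule. The T4V libraries of MHT1 were 1.44-fold apart.

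RGT2, the plasma membrane sensor of high glucose, had 15.1 and 14.4 RPKM in WT and 6.11 and 7.68 in T4V, or 46.6%. AMD2, annotated as a putative amidase, had 27.6 and 22.7 RPKM in WT and 13.01 and 11.9 in T4V, or 49.6%. Both had low to moderate levels and ratios close to the limit.

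Of 12 other genes of NAD synthesis and salvage, 3 were called lower and 1 higher, against 6.25% and 11.7% of all genes tested. The 12 had a median log2 fold change of -0.08. BNA5, the kynureninase further along the same route, had 42.4 and 43.8 RPKM in WT and 22.1 and 22.4 in T4V (log2 fold change -0.92 ± 0.10 SE, adjusted p = 0.00298). BNA6, which makes nicotinate mononucleotide from quinolinate, had 44.9 and 42.8 RPKM in WT and 33.9 and 33.8 in T4V (log2 fold change -0.36 ± 0.10 SE, adjusted p = 0.0473), a call lost without each library in turn (log2 fold change -0.40 to -0.33, adjusted p 0.0834 to 0.146). NMA2, an adenylyltransferase of the last steps, had 43.9 and 37.8 RPKM in WT and 28.1 and 25.3 in T4V (log2 fold change -0.59 ± 0.12 SE, adjusted p = 0.0207), a call lost without WT library A or T4V library B (log2 fold change -0.52 to -0.49, adjusted p 0.0658 to 0.0688). PNC1, the nicotinamidase of the salvage route, had 1152 and 1047 RPKM in WT and 1752 and 1692 in T4V (log2 fold change 0.65 ± 0.07 SE, adjusted p = 0.00209). The calls of BNA5 and PNC1 held in each other alternative. BNA7 and the NAD carrier gene YEA6 both have roles around NAD. They were paired with the 29 genes known, and a shared role was not tested.

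MHT1 has 1 close relative, SAM4, at 62.8% identity, whose product works on the same substrates. SAM4 had 260.4 and 299 RPKM in WT and 182 and 211 in T4V (log2 fold change -0.51 ± 0.10 SE, adjusted p = 0.0188), a call lost without T4V library A (log2 fold change -0.40, adjusted p 0.0548). MMP1, the permease of S-methylmethionine, is divergent from MHT1 across 342 bases and had 18.1 and 20.9 RPKM in WT and 17.01 and 15.7 in T4V, which was not called (adjusted p = 0.299, log2 fold change -0.24, 95% interval -0.59 to 0.11). SAM3, the permease of AdoMet, was picked after the 29 genes were known and had 112 and 117 RPKM in WT and 70.3 and 63.9 in T4V, with both T4V libraries below both WT libraries.

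RGT2 and TGL5 also have whole-genome duplication partners. SNF3, the low glucose sensor at 64.4% identity to Rgt2, had 3.98 and 3.71 RPKM in WT and 5.72 and 5.21 in T4V and was not called (log2 fold change 0.42, 95% interval -0.21 to 1.05). HXT2, a glucose transporter of the same superfamily at 31.1% identity, had 67.7 and 66.98 RPKM in WT and 114 and 107 in T4V (log2 fold change 0.71 ± 0.08 SE, adjusted p = 0.00298), a call that held in each other alternative. The corepressors MTH1 and STD1, which the glucose sensors act on and which were picked after the 29 genes were known, had 15.1 and 15.6 RPKM in WT and 15.8 and 19.5 in T4V, and 53.03 and 50.4 RPKM in WT and 46.4 and 53.4 in T4V. TGL4, at 64.7% identity to Tgl5, had 28.7 and 29.9 RPKM in WT and 39.04 and 33.6 in T4V and was not called by limma (log2 fold change 0.30, 95% interval 0.01 to 0.58, adjusted p = 0.135), though voom called it higher. TGL3, the main lipase of this family, had 67.4 and 61.7 RPKM in WT and 74.2 and 73.5 in T4V and was likewise picked after the fact.

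Translated proteins with at least 25% identity over 50% of the longer protein gave paralogs for 8 of the 29 genes, 18 in all, and none is itself among the 29. Of the 17 tested, 2 (MKC7 and SAM4; 11.8%) were called lower, against 6.25% of all genes tested, and 4 (YPS1, KRE2, HXT2 and UBC4; 23.5%) higher, against 11.7%, with a median log2 fold change of 0.17. MKC7, YPS1, KRE2 and UBC4 are also counted among the called genes of the lists, and YPS1 again among the neighbours. The counts of partners, paralogs and neighbours are therefore not separate. UBC4, a ubiquitin-conjugating enzyme at 30.2% identity to Ubc12, had 634 and 634 RPKM in WT and 773 and 832 in T4V (log2 fold change 0.34 ± 0.06 SE, adjusted p = 0.0145), a call lost without T4V library B (log2 fold change 0.28, adjusted p 0.0723). Its relatives UBC13 and RAD6 were not called (log2 fold changes 0.18, 95% interval 0.04 to 0.32, and 0.00, 95% interval -0.29 to 0.29), nor were RIM2 and FLX1, carriers related to YEA6 at 30.7% and 30.1% identity (log2 fold changes -0.04, 95% interval -0.32 to 0.24, and -0.18, 95% interval -0.60 to 0.24). GAL2, a relative of RGT2, was listed at 0 in both WT libraries and was not tested.

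Of 96 lists of complexes and pathways, 15 held 1 of the 29 genes each. Their other 289 tested genes had a median log2 fold change of -0.01, and 17 of them (5.88%) were called lower, against 6.25% of all genes, and 19 (6.57%) higher, against 11.7%. A partner that had met the rule would have been moved into the 29, so the partners' share leaves out such falls by construction. No list held more than 1 of the 29 genes, but only 15 of the 29 were in a list at all. The lists also leave out related genes, as the kinetochore list holds CEP3 and not IML3. Whether the 29 share a complex or pathway was not tested. Without the variance trend, 30 of the calls named here on partners, paralogs and neighbours were lost, among them those of OCH1 and KTR4, which held when each library was left out in turn. The calls of AIM3, BNA6, MEF2, NSE1, PAM16 and YMC1 were lost without the filter on low values, and those of BNA6, PAM16 and SPC25 with voom.

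**Figure D3:**
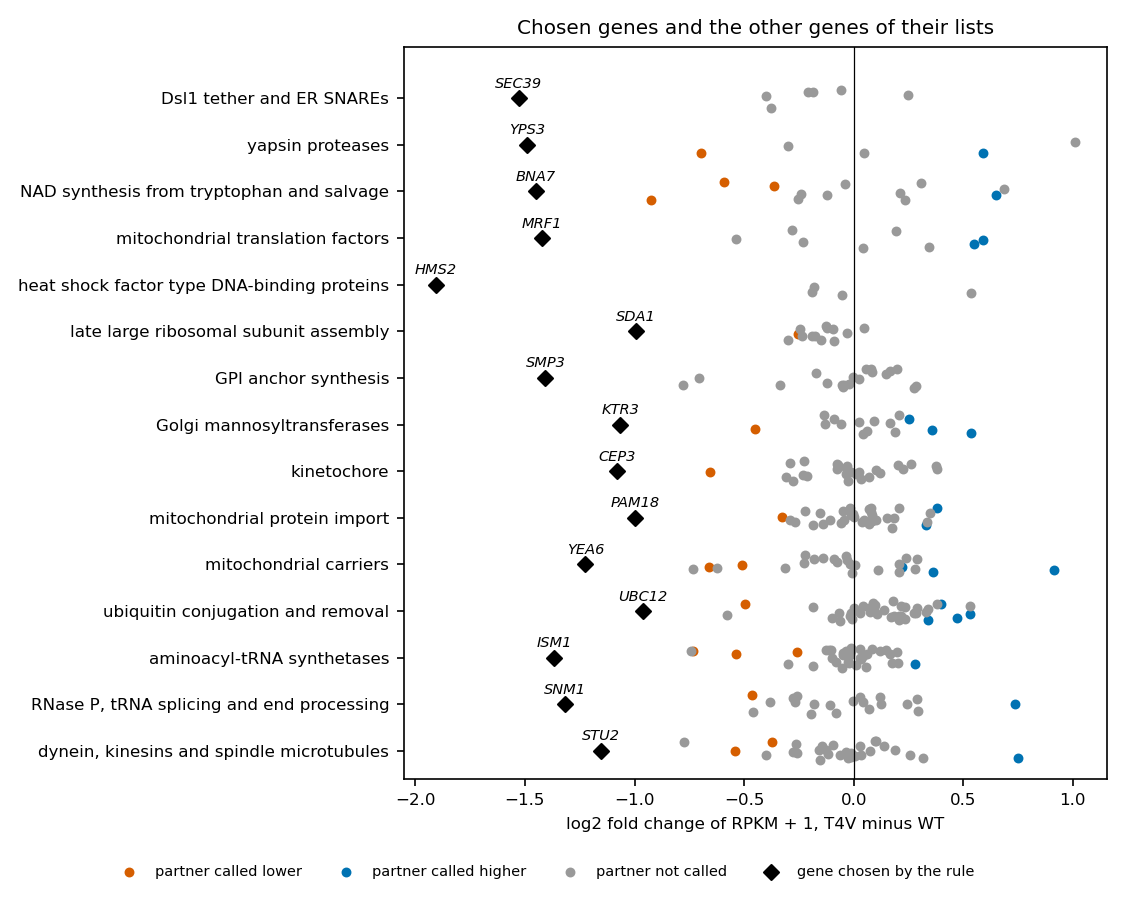
Log2 fold change of RPKM + 1 (T4V minus WT) of the other genes of the 15 lists (dots; called lower, called higher or not called by limma) with the gene chosen by the rule as a diamond. The dots of each list centre near 0, from a median of -0.20 (Dsl1 tether and ER SNAREs) to 0.17 (ubiquitin conjugation and removal). The diamond is the lowest value in each row, which the rule that chose it favours.

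Position along the chromosome was not used by the rule. Each of the 29 genes has a protein-coding neighbour on either side, 58 in all, of which 57 were tested. Of these, 6 (10.5%) were called lower and 4 (7.02%) higher, against 6.25% and 11.7% of all genes tested. The 57 had a median log2 fold change of -0.004, and the 6 include YJR146W, whose value may not be separate from that of HMS2. Upstream neighbours were in tandem for 13 of the 29 genes (44.8%, against 47.9% of named genes at or over the WT minimum) and divergent for 16 (55.2% against 52.1%). Downstream neighbours were in tandem for 17 (58.6% against 46.0%) and convergent for 12 (41.4% against 54.0%). Among the neighbours of all named genes at or over the WT minimum, 5.20% (convergent) to 7.77% (tandem upstream) were called lower, and 10.3% (divergent) to 12.0% (tandem downstream) higher.

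Among upstream neighbours in tandem, 2 of 13 were called lower, counting YJR146W, whose value may not be separate from that of HMS2. These were YJR146W before HMS2, given above, and TIF35, a translation initiation factor gene before BNA7 (log2 fold change -0.34 ± 0.06 SE, adjusted p = 0.0145), a call lost without T4V library A (log2 fold change -0.34, adjusted p 0.0528). ALD3, an aldehyde dehydrogenase gene before CEP3, had 4.69 and 3.24 RPKM in WT and 10.2 and 8.79 in T4V (log2 fold change 1.09 ± 0.26 SE, adjusted p = 0.0311), a call lost without WT library B, T4V library A or T4V library B (log2 fold change 0.88 to 1.19, adjusted p 0.0752 to 0.146) and after quantile normalization. The ALD3 and CEP3 values thus went in opposite directions across a gap of 193 bases.

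Of 15 divergent neighbours tested, 2 were called lower and 0 higher by limma. AIM3, divergent from IML3 across 291 bases, had 43.3 and 41.7 RPKM in WT and 30.5 and 33.4 in T4V (log2 fold change -0.40 ± 0.10 SE, adjusted p = 0.0427), a call lost without each library in turn (log2 fold change -0.47 to -0.34, adjusted p 0.0741 to 0.176). RLP24, given above with the ribosome assembly genes, is divergent from PAM18 across 453 bases. MED8, which shares its upstream region with AIM4, had 23.8 and 17.9 RPKM in WT and 20.4 and 19.9 in T4V (log2 fold change -0.03, 95% interval -0.42 to 0.36), although AIM4 on the other side of the same 284 bases had 23.1% of its WT mean.

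Downstream, LSC2 follows SDA1 in tandem and encodes a subunit of the citric acid cycle enzyme succinyl-CoA ligase. It had 102 and 104 RPKM in WT and 191 and 169.6 in T4V (log2 fold change 0.80 ± 0.08 SE, adjusted p = 0.00216), and its call held in each other alternative. PSD1, which makes phosphatidylethanolamine in mitochondria and follows FMP41, had 354 and 331 RPKM in WT and 269.9 and 279 in T4V (log2 fold change -0.32 ± 0.07 SE, adjusted p = 0.0213), a call lost without WT library A, T4V library A or T4V library B (log2 fold change -0.34 to -0.27, adjusted p 0.059 to 0.0972). MRPL4, convergent with SEC39 and encoding a mitochondrial ribosomal protein, was lower at -0.39 (adjusted p = 0.0171), lost without T4V library A or T4V library B (log2 fold change -0.41 to -0.37, adjusted p 0.053 to 0.0759). NSE1, convergent with PAM18, was higher at 0.52 (adjusted p = 0.0456), lost without WT library B or T4V library B (log2 fold change 0.41, adjusted p 0.126 to 0.178) and under both other scalings. Apart from YJR146W, no tested neighbour had a log2 fold change below -0.40, when written to 2 decimals.

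**Figure D4:**
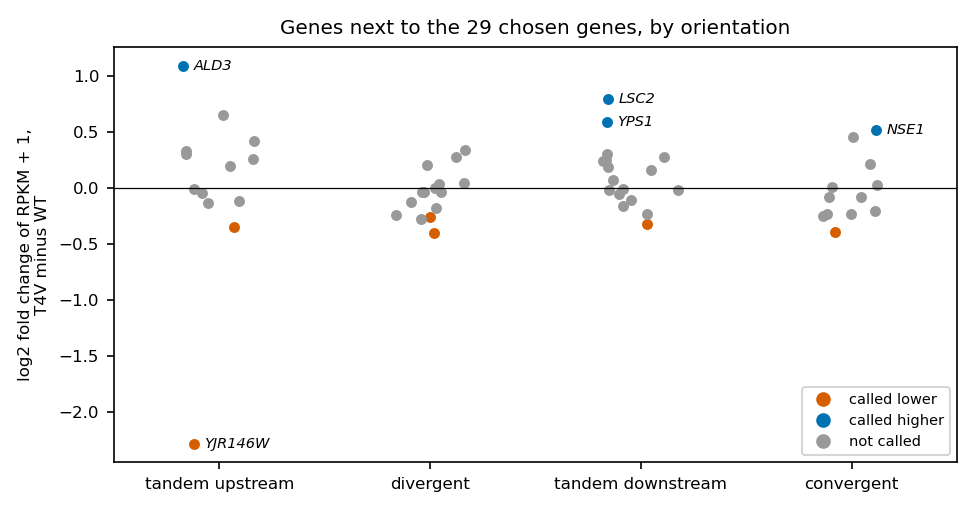
Log2 fold change of RPKM + 1 (T4V minus WT) of the 57 tested neighbours of the 29 genes, by orientation relative to the chosen gene, with colour for limma's call. Most points lie within 0.5 of 0, and YJR146W, which overlaps HMS2, stands apart at -2.28.

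The limits of the rule cut through a continuum. Just inside the ratio of 0.5 were AMD2 (0.496), SDA1 (0.497) and PAM18 (0.499), and just outside were JAC1 (0.507), SYC1 (0.510) and DML1 (0.513). At the WT minimum, UBC12, RGT2 and ISM1 were the lowest inside, with WT means of 14.01, 14.8 and 18.4 RPKM. HUA2 (10.8 and 9.72 RPKM in WT and 2.04 and 6.09 in T4V), SPO22 (given above) and YHK8 (5.57 and 4.61 RPKM in WT and 2.12 and 2.89 in T4V) met the ratio but missed the minimum.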

How the data were processed

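Per the labels' protocols, poly(A) RNA was fragmented, ligated to adapters in a way that keeps the strand, amplified and read on an Illumina Genome Analyzer IIx. Per the submitters' processing notes, Bowtie2 and sacCer3 were used. Program versions, read counting, gene models and strand use: not given in the sources used here. Values were deposited by the authors as RPKM in 1 table with a column per library. The columns show the genotype and a letter but no replicate number, so libraries are called A and B. Reads were recovered from the RPKM steps, RefSeq exonic length and a library size. Per library, 99.1% to 99.4% of low genes gave a value no more than 0.1 from a whole number of reads, and these reads cover counting error only. Of 7126 genes, 6207 matched the RefSeq R64 annotation.

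The test across all genes was limma 3.58.1 (R 4.3.3) on log2(RPKM + 1) with a variance trend, 2-sided, for genes with at least 1 RPKM in at least 2 libraries. Fold changes are on that scale and understate the change of low genes. Paralogs were found with blastp 2.17.0 (e-value at most 1e-10, at most 3 a gene) among proteins translated from the RefSeq coding sequences. Neighbours are the nearest annotated protein-coding genes. Tables and plots came from Python 3.11.15 with matplotlib 3.10.9, numpy 2.4.6 and pandas 2.3.3.

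The chosen genes and lists were chosen with earlier results of these data known. Named are all 29 genes, called partners (at most 4 a list), paralogs of at least 10 RPKM in WT, called neighbours (at most 10) and the genes next to each limit. SKN7, SNF3, GAL2, MMP1, MED8 and the direct partners said to be picked later fall outside this rule and were chosen after values were seen. Alternatives changed the pseudocount, filter, scaling, variance model and test (voom on recovered reads), and left out each library in turn. A block on the column letter, and leaving out a library over the genes filtered on 4 libraries, were added after seeing the data.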

Additional observations from a re-analysis of the deposited data

How the results depend on the processing

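Across all genes, the 371 called lower and 692 called higher became 134 and 265 without the variance trend, 585 and 1010 with voom, and 443 and 449 after quantile normalization; leaving out 1 library gave 250 to 321 lower and 404 to 652 higher. The 17 partners called lower became 6 without the trend and 26 with voom, and 8 to 13 without 1 library. The 19 called higher became 11 after median-of-ratios scaling, 10 after quantile normalization, 7 without the trend, 33 with voom and 7 to 17 without 1 library. Of paralogs, 1 was lower and 2 higher without the trend, and 1 to 2 and 2 to 4 without 1 library. Of neighbours, 1 was lower and 2 higher without the trend, 2 higher after quantile normalization, and 1 to 4 lower and 2 to 4 higher without 1 library. The rule found 36 genes after median-of-ratios scaling and 42 after quantile normalization, each with all 29; 18 when every T4V library had to be at most 0.5 of every WT library; and 27 to 35 without 1 library, with 25 or 26 of the 29 kept. No named gene that was called changed sign in any alternative run. A fit that lacks 1 library of a genotype assumes that the lone library varies like the others. With the genes filtered over all 4 libraries, an alternative chosen after seeing the data, leaving out 1 library gave 6 to 245 genes lower and 10 to 501 higher, 0 to 9 partners lower and 0 to 12 higher, 0 to 2 paralogs lower and 0 to 4 higher, and 0 to 4 neighbours lower and 0 to 3 higher, with the lowest of each range without a T4V library. The columns carry letters and not the replicate numbers of the labels. A replicate block on the letter, also chosen after seeing the data, gave 393 lower and 744 higher over all genes, 16 and 18 of partners, 2 and 4 of paralogs and 4 and 4 of neighbours, and 7 named calls missed the threshold. What the letters mark is not stated. A minus B in WT and in T4V correlated at -0.015 over 5935 genes, and whether libraries of a letter shared a batch was not tested. With 2 libraries a genotype, low read counts, such as the 29 reads of UBC12 in T4V, limit the precision.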
